A study of Homo sapiens with 30 samples.

Results

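The 31 genes described here encode the SR proteins (SRSF1 to SRSF11), the TRA2 proteins (TRA2A and TRA2B) and the heterogeneous nuclear ribonucleoproteins, or hnRNPs (18 genes). They were taken by gene symbol from the 39126 genes of the whole-cell count table, by the same gene identifiers from the 55548 genes of the nuclear count table, and by symbol from 4 tables of skipped exons. All 31 passed the filter on low counts in both count tables. The series holds 30 RNA-seq libraries, 3 in each of 10 groups. RNA of whole cells came from Hues6, a human embryonic stem cell line, either wild type (WT) or labelled as knockout (KO) of QKI, an RNA-binding protein of the STAR family that regulates splicing. Cells were taken at day 0 (D0, pluripotent), day 4 (D4, cardiac progenitors) and day 8 (D8, cardiomyocytes) of differentiation, and nuclear RNA was taken at D8. Differentiation was started with 1.5 ng/mL BMP4 in both genotypes and with CHIR, which inhibits GSK3 and so activates the WNT pathway, at 1.5 uM in WT and 1.25 uM in KO, so from D4 on genotype and CHIR dose cannot be told apart. The remaining 2 groups were 293T cells (a line from embryonic kidney) with QKI knocked down by siRNA or with a control siRNA, and for them the skipped-exon table was used. How many KO clones were used is not given in the labels. Nothing in the labels says that the 3 libraries of a group came from separate cultures, so p-values measure the spread between libraries, which may be technical.

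SR proteins carry RNA recognition motifs and a domain rich in arginine and serine, bind exonic enhancers, and help the spliceosome recognise exons. The hnRNPs coat nascent transcripts, often bind silencer sequences, and can oppose SR proteins at the same exon. Many genes of both families hold a conserved "poison" exon or cassette whose inclusion brings a stop codon in frame, so that the transcript is removed by nonsense-mediated decay (NMD), and the proteins control their own levels in this way.

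Some of the exons named in the splicing results are shown first. Each was matched to GENCODE release 29 (GRCh38) by gene, exon length and the lengths of both flanking introns, and the annotated coding part is printed 5′ to 3′, with a stop codon, where the exon holds one, in capitals. The first 4 belong to transcripts annotated as NMD targets, and each shows the reading frame ending inside the exon. The last 2 are coding exons without a stop, in HNRNPD and HNRNPA2B1. Of the printed exons, those of SRSF6 and HNRNPD were called by the rule given below, and the others were not. The called exons of SRSF11 (109 nt), HNRNPA2B1 (136 nt) and HNRNPC (115 nt) are not printed.
SRSF6 exon of 268 nt (chr20:43459153-43459420, plus strand): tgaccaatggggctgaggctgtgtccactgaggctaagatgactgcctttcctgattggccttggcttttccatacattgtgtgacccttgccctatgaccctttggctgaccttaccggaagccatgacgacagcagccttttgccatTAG
TRA2B exon of 276 nt (chr3:185931577-185931852, minus strand): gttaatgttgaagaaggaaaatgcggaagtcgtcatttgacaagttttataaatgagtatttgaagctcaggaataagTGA
SRSF11 exon of 117 nt (chr1:70231859-70231975, plus strand): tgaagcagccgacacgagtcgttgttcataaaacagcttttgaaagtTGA
HNRNPL exon of 70 nt (chr19:38841613-38841682, minus strand): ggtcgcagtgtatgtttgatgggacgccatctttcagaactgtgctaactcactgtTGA
HNRNPD exon of 57 nt (chr4:82371528-82371584, minus strand): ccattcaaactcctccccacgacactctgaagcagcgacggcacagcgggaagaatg
HNRNPA2B1 exon of 36 nt (chr7:26197831-26197866, minus strand): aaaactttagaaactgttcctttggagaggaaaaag

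Whole-cell libraries held 40001076 to 89948185 counts and nuclear libraries 6549676 to 15030590. Levels are given as CPM, counts scaled to equal library totals with TMM composition factors. Calls are adjusted p under 0.05 (Benjamini-Hochberg over all genes tested) in edgeR's quasi-likelihood test. QKI itself was lower in KO at D0 (39.4 ± 3.34 CPM against 293 ± 7.39 in WT, mean ± SD, n = 3) and at D4 (78.2 ± 10.2 CPM against 146 ± 8.87). It was not lower at D8, where the libraries labelled KO had 335 ± 5.30 CPM against 324 ± 41.9 (log2 fold change 0.05 ± 0.09, SE), and in nuclear RNA it was higher in the libraries labelled KO by 1.66 ± 0.17. Directions at D8 are therefore those of the labels alone. Mitochondrially encoded genes took 15.5% to 18.9% of the counts in D4 WT libraries and 10.7% to 12.4% in D4 KO libraries. Of 8 cardiomyocyte genes, 6 were called higher at D8 in the libraries labelled KO (TNNT2 1.41, TNNI1 1.53, MYL7 1.26, MYH6 1.12, RYR2 1.00 and TTN 0.86), ACTN2 was called lower (-2.07) and MYH7 was not called. Their sum was 9772 to 17103 CPM in D8 WT and 26844 to 30972 in D8 libraries labelled KO, most of it MYH6 (means 8318 and 18032), and the 15 proliferation genes summed to 1028 to 1088 and 543 to 663. Of the other marker lists at D8, the calls higher and lower were 6 and 1 of 8 cardiac progenitor genes, 5 and 1 of 7 endoderm genes, 3 and 0 of 5 endothelial genes in the table, 3 and 1 of 6 smooth muscle and fibroblast genes, 1 and 5 of 7 pluripotency genes, 0 and 7 of 7 surface ectoderm and amnion genes, and 0 and 0 of 3 neural genes that passed the filter. In bulk RNA, fewer cells of a type and less RNA per cell cannot be told apart.

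In WT cells most hnRNPs were lower at D4 than at D0, while 6 of the 11 SR proteins were higher and 3 lower. The hnRNP A/B group summed to 12276 ± 597 CPM at D0 and 4939.9 ± 294 at D4, and the SR proteins to 2708 ± 148 and 3045 ± 50.4. By D8 all 31 genes together had gone from 22928 ± 1029.7 CPM at D0 to 11023 ± 409. From D0 to D4, 6 of the 31 genes were called higher, all of them SR proteins, and 19 lower, against 42% and 39.1% of all genes tested (81% in either direction), with a median log2 change of -0.478 beside 0.075 over all genes. Genes with a mean of at least 100 CPM, a level that 30 of the 31 reached in WT at D0, had a median of -0.40.

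SRSF6, an SR protein also known as SRp55, had 119, 111 and 115 CPM in the D0 WT libraries and 347, 365 and 362 at D4, with a log2 fold change of 1.64 ± 0.08 (SE, adjusted p = 2.08e-14, edgeR). SRSF2, long known as the nuclear speckle marker SC35, had 141, 139 and 152 CPM at D0 and 417, 431 and 429.8 at D4 (1.57 ± 0.09). All D4 libraries lay well above all D0 libraries for both genes. SRSF5, another SR protein that binds exonic enhancers, had 250.2, 205 and 206 CPM and then 435, 447 and 421 (0.98 ± 0.07). SRSF11 had 313, 288 and 286 CPM and then 371, 352 and 333 (0.25 ± 0.08). The changes of SRSF11, SRSF4 (0.15) and SRSF9 (0.15) were small beside the first 3. The call of SRSF4 was lost without D0 replicate 1 or D4 replicate 3, that of SRSF9 without any of the 6 libraries other than D4 replicate 1, and that of HNRNPU (-0.15, lower) without D0 replicate 1 or D4 replicate 1 or 2. TRA2A, called lower, lost its call only with totals unscaled for composition.

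The deepest falls from D0 to D4 in WT were in hnRNPs. HNRNPA3, a relative of hnRNP A1, had 1871, 1678 and 1943 CPM at D0 and 469, 472 and 487 at D4 (-1.94 ± 0.07, adjusted p = 2.37e-16, edgeR). HNRNPA2B1, which binds UAG-containing silencers and sorts RNA for transport, had 3869.8, 3469 and 3698 CPM and then 1296, 1302 and 1314 (-1.50 ± 0.07). HNRNPC, which binds uridine tracts as a tetramer, had 1995, 1895 and 2099 CPM and then 687, 785 and 791 (-1.40 ± 0.07). In each of these the groups were far apart. HNRNPUL2 had 139, 116 and 129 and then 47.4, 50.2 and 52.7 CPM (-1.35 ± 0.06), and HNRNPH3, of the family that binds G tracts, had 578, 519 and 563 and then 213, 218 and 226 (-1.34 ± 0.07). All 6 hnRNP A/B genes, 3 of 4 hnRNP F/H genes and 4 of the 5 other hnRNPs were called lower, with HNRNPM at -0.10 and not called. Per kilobase of GENCODE exon (the union of all annotated exons, release 29), HNRNPA1 stood highest at each day in WT, at 994 CPM per kilobase at D0, 404 at D4 and 483 at D8, and SRSF8 lowest, at 1.93, 1.36 and 2.72.

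**Figure D1:**
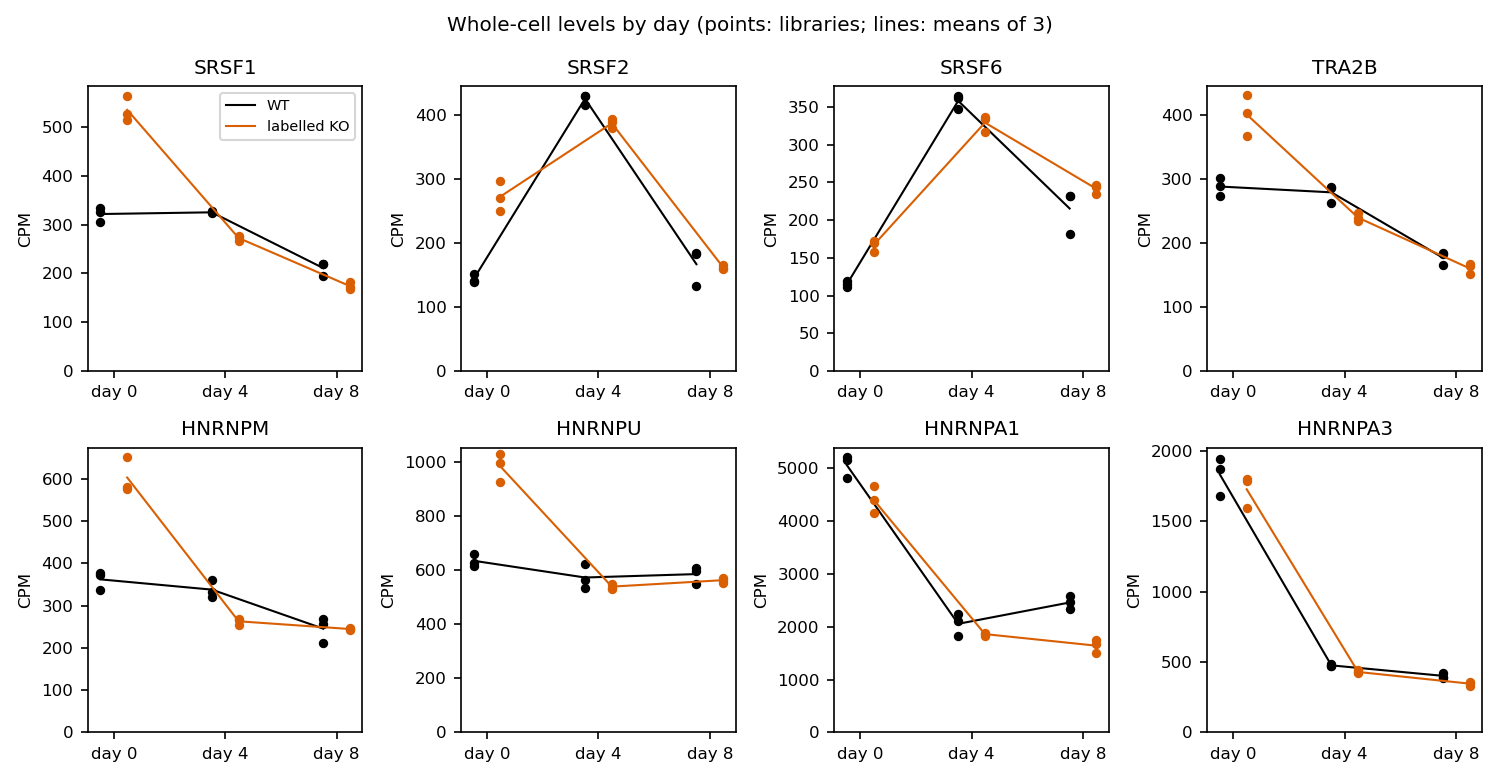
Whole-cell levels (y axis, CPM, from 0) of 8 genes by day (x axis) in WT (black) and in libraries labelled KO (orange). Points are libraries and lines join the means of 3. SRSF2 and SRSF6 peak at D4 in both genotypes, HNRNPA1 and HNRNPA3 fall from D0, and SRSF1, TRA2B, HNRNPM and HNRNPU stand above WT in KO at D0.

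From D4 to D8 in WT, 6 genes were called higher and 18 lower, beside 35% and 33.8% of all genes tested (68.8% in either direction), with a median of -0.448 (0.010 over all genes). SRSF2 fell back to 133, 185 and 182 CPM (-1.35 ± 0.09, adjusted p = 2.53e-11, edgeR), close to its D0 levels, while SRSF6 at 182, 232 and 232 (-0.73 ± 0.07) stayed above them. HNRNPH1 had 777, 722 and 697 CPM at D4 and 327, 369.5 and 403 at D8 and so fell by 1.00 on the log2 scale (SE 0.08). SRSF7, an SR protein that also links splicing to mRNA export, went from 264, 284 and 276 CPM to 131, 153 and 158 (-0.90 ± 0.08), and HNRNPA2B1 fell further, to 763, 797 and 828 (-0.71 ± 0.07). The highest change was in SRSF8, a scarce SR protein from an intronless copy of SRSF2, with 4.88, 5.26 and 6.28 CPM at D4 and 10.3, 11.2 and 11.3 at D8 (1.00 ± 0.09). HNRNPH2 had 77.1, 80.5 and 81.6 and then 127, 126 and 125 CPM (0.66 ± 0.06), and HNRNPUL2, HNRNPA1 and HNRNPK were higher by 0.27, 0.26 and 0.19. HNRNPUL1 (0.17) lost its call without D4 replicate 1 or D8 replicate 2 and with DESeq2 size factors in edgeR or by DESeq2's own test, and HNRNPK in a fit of the WT D4 and D8 libraries alone. Of the 15 proliferation genes, 12 were called lower from D0 to D4 and 15 from D4 to D8. Their part in these values was not tested.

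At D0, before differentiation, the KO cells had more of 15 of the 31 genes and less of 2, where 21.4% of all genes tested were called higher and 20.9% lower. The median log2 fold change was 0.148, beside -0.012 over all genes and 0.05 over the 2080 genes with a mean of at least 100 CPM. In either direction, 42.3% of all genes and 51.5% of those 2080 were called. The called genes included 4 of 11 SR proteins and both TRA2 genes, and 13 of the 17 differed by less than 1.5-fold. SRSF2 had 141, 139 and 152 CPM in WT and 250.2, 271 and 297 in KO, a log2 fold change of 0.92 ± 0.09 (SE, adjusted p = 7.79e-08, edgeR). HNRNPM, which binds GU-rich sequence, had 378, 337 and 371 CPM in WT and 580.4, 576 and 652 in KO (0.74 ± 0.08, adjusted p = 2.55e-07, edgeR). SRSF1, the founding SR protein, had 334, 306 and 325 CPM in WT and 514, 528 and 565 in KO (0.73 ± 0.06, adjusted p = 5.23e-09, edgeR). For these 3 genes each KO library was above each WT library. HNRNPU, also called scaffold attachment factor A for its place in chromatin organisation, had 661, 616 and 628 CPM in WT and 995, 928 and 1029 in KO (0.63 ± 0.06). SRSF6 had 119, 111 and 115 CPM in WT and 158, 169 and 173 in KO (0.54 ± 0.07).

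Among the TRA2 proteins, activators that bind GAA-rich enhancers, TRA2B had 289, 273 and 302 CPM in WT and 367, 404 and 431 in KO (0.48 ± 0.07), and TRA2A, whose groups overlapped, 134, 113 and 146 and 137, 181 and 174 (0.32 ± 0.09). HNRNPH2 (0.48), HNRNPAB (0.46), HNRNPA0 (0.41), HNRNPF (0.32), HNRNPR (0.30), SRSF10 (0.26), HNRNPL (0.23) and HNRNPUL1 (0.20) were the other genes called higher. The 2 genes called lower were HNRNPUL2, with 139, 116 and 129 CPM in WT and 98.6, 105 and 106 in KO (-0.31 ± 0.06), and HNRNPA1, with 5165, 4811 and 5209 and 4158, 4394 and 4667 (-0.20 ± 0.08, adjusted p = 0.0442, edgeR). HNRNPA1 counts are uncertain to the extent that reads of its 56 listed pseudogenes, which held 0.303% to 1.35% as many counts, could be assigned to either. The HNRNPA1 call was lost without WT replicate 1 or 3 or KO replicate 1 or 2 (adjusted p = 0.113, 0.115, 0.164 and 0.0941). TRA2A lost its call without WT replicate 2 or KO replicate 2 (0.0576 and 0.0507), and HNRNPUL1 without WT replicate 3 or KO replicate 1 (0.0620 and 0.0652). Some marker genes also differed at D0. The endoderm genes SOX17 (5.07), AFP (2.72), FOXA2 (2.69) and CER1 (2.34) were called higher, each at 5.49 CPM or less in KO. So were TTN (1.59), TNNT2 (1.08), L1TD1 (0.48) and TDGF1 (0.34). The other endoderm, cardiomyocyte and pluripotency genes listed were not called. Of surface ectoderm and amnion genes, KRT18 (0.38) was called higher, and GABRP (-1.06) and TFAP2C (-0.50) lower. Their part in the result was not tested.

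**Figure D2:**
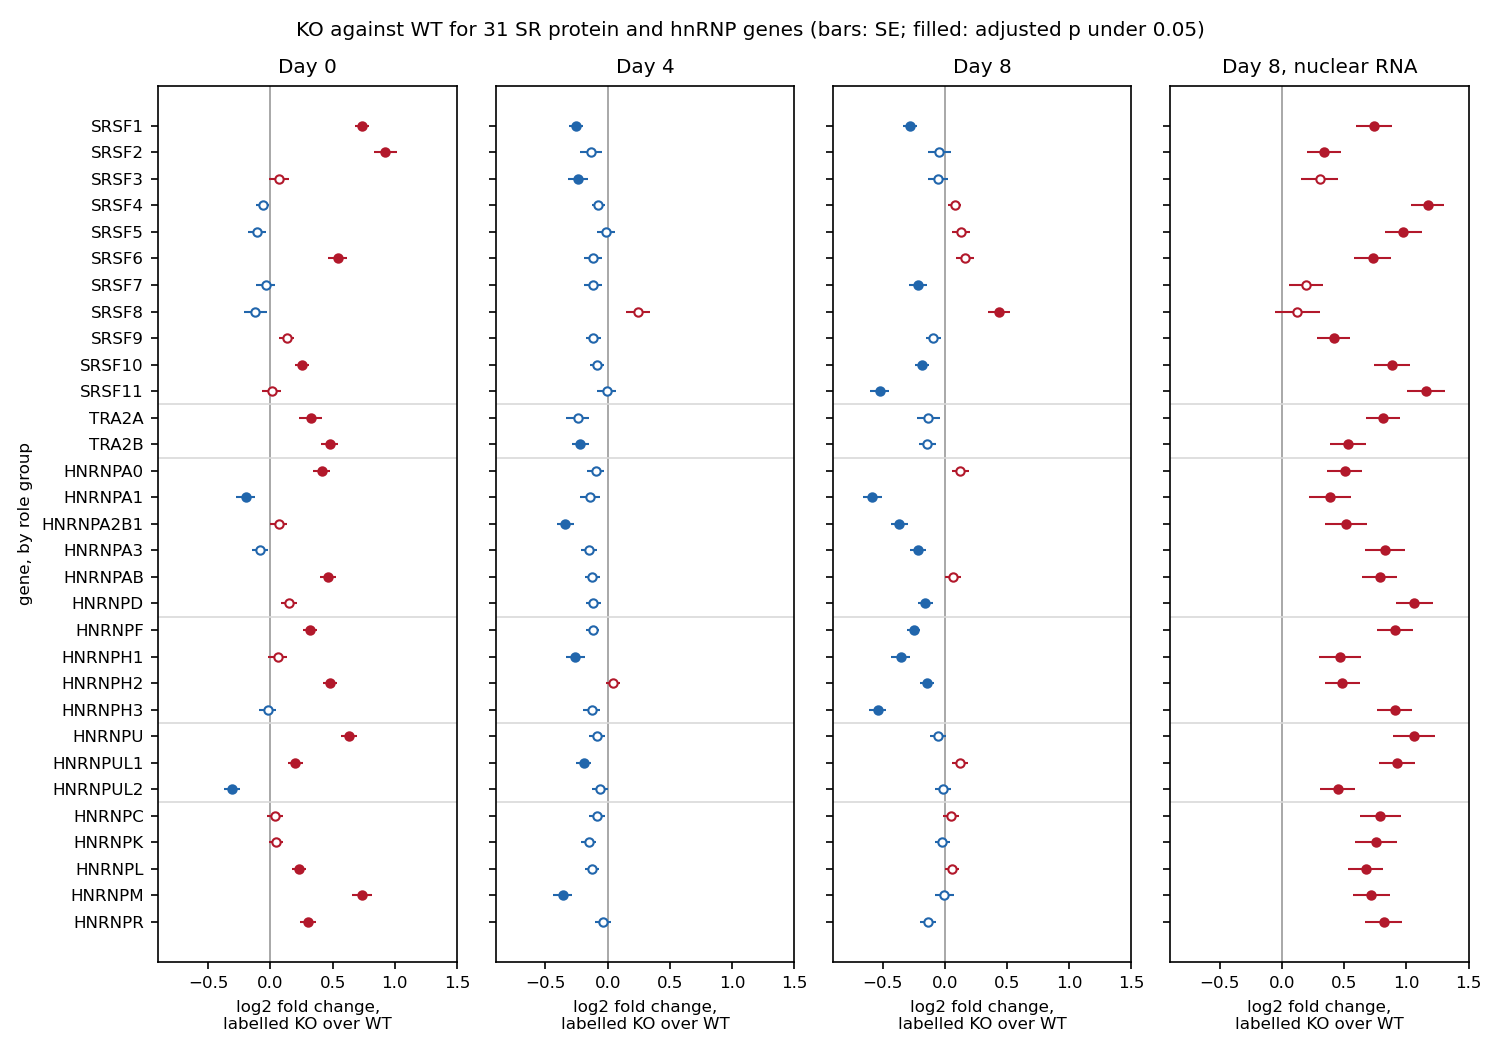
Log2 fold change (x axis) of each of the 31 genes (y axis, by role group) in libraries labelled KO over WT at D0, D4, D8 and in D8 nuclear RNA. Bars are standard errors, and filled points passed the adjusted p of 0.05. At D0 15 points lie filled above 0, at D4 none does, and in nuclear RNA 28 do.

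At D4 the largest differences were smaller, and the genes called were lower in KO. Of the genes called higher at D0, 4 were called lower at D4 (HNRNPM, HNRNPUL1, SRSF1 and TRA2B). No gene was called higher by edgeR (16.3% of all genes were, and 1 of the 31 had an unadjusted p under 0.05 in that direction), and 7 were called lower, beside 12% of all genes. With DESeq2 size factors in edgeR 11 were called lower, and DESeq2's own test called none higher and 12 lower. The median was -0.121, beside -0.004 over all genes and -0.058 over genes with a mean of at least 100 CPM. In either direction, 28.4% of all genes and 42.5% of those with at least 100 CPM were called. HNRNPM had 319.6, 333 and 361 CPM in WT and 266, 269 and 253 in KO (-0.36 ± 0.08, adjusted p = 0.00129, edgeR). HNRNPA2B1 had 1296, 1302 and 1314 in WT and 1043, 1025 and 1025 in KO (-0.34 ± 0.07). SRSF1 had 328, 325 and 323 and 275, 266 and 277 (-0.25 ± 0.06). In these 3 genes the KO libraries were all below the WT libraries. HNRNPH1 had 777, 722 and 697 CPM in WT and 635, 599 and 599 in KO (-0.26 ± 0.08), and SRSF3, the smallest SR protein, 373, 418 and 429 and 349, 342 and 345 (-0.24 ± 0.08). TRA2B (-0.22) and HNRNPUL1 (-0.19) were the others called.

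Of the D4 calls, those of HNRNPM, HNRNPA2B1 and SRSF1 were kept under all the alternatives run. Leaving out D4 WT replicate 2 left 4 genes called lower, and leaving out WT replicate 3 left 4 lower and 1 higher. Leaving out KO replicate 2 or 3 left 3. HNRNPH1 lost its call without WT replicate 1 or KO replicate 2 or 3, and SRSF3 and HNRNPUL1 lost theirs without any library other than WT replicate 1. TRA2B lost its call without WT replicate 2 or 3 or KO replicate 2 or 3. With totals unscaled for composition, 3 genes were called lower and 1 higher, and 73.8% of all called genes were higher in place of 57.6%. In the same comparison 14 of 15 proliferation genes were called lower (summed CPM 2152 to 2225 in WT and 1669.9 to 1738 in KO), and the mitochondrial share differed as given above. Of 7 endoderm genes 6 were called higher and none lower, the largest being APOA2 (2.28), CER1 (2.28), TTR (1.81) and APOA1 (1.74). Of 7 pluripotency genes 1 was called higher (TDGF1, 0.49) and 4 lower (SOX2 -1.25, L1TD1 -0.85 and POU5F1 -0.61 among them). The calls higher and lower were 5 and 1 of 8 cardiac progenitor genes, 3 and 1 of 8 cardiomyocyte genes, 4 and 0 of 5 endothelial genes, 3 and 1 of 6 smooth muscle and fibroblast genes, 1 and 3 of 7 surface ectoderm and amnion genes, and 0 and 1 of 3 neural genes that passed the filter. Their part in the result was not tested.

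At D8, 12 genes were called lower and 1 higher in the libraries labelled KO, beside 26.2% and 29.4% of all genes, with a median of -0.093 (0.006 over all genes). In either direction, 55.6% of all genes were called. Of genes with a mean of at least 100 CPM, 62.5% were called, with a median of 0.02. HNRNPA1, which binds UAGGG-like silencers, had 2329, 2460.2 and 2590.0 CPM in WT and 1749, 1674 and 1502 in the libraries labelled KO (-0.58 ± 0.08, adjusted p = 2.31e-06, edgeR). HNRNPH3 had 205, 192 and 205 and 153, 138 and 124 (-0.54 ± 0.07). SRSF11 had 226, 227 and 244 and 185, 156 and 144 (-0.52 ± 0.08). None of these groups overlapped. HNRNPA2B1 had 763, 797 and 828 CPM in WT and 652, 635 and 567 in the libraries labelled KO (-0.36 ± 0.07), and HNRNPH1 327, 369.5 and 403 and 306, 284 and 269 (-0.36 ± 0.08). SRSF8 was the gene called higher, with 10.3, 11.2 and 11.3 CPM in WT and 14.9, 14.6 and 14.8 in the libraries labelled KO (0.43 ± 0.09).

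The hnRNP F/H group, which binds G tracts in introns and exons, was the role group in which all members were called lower at D8: HNRNPF had 257, 268 and 266 CPM in WT and 231, 221 and 212 in the libraries labelled KO (-0.25), and HNRNPH2 127, 126 and 125 and 118, 113 and 111 (-0.14). No member of the hnRNP U group and none of the 5 other hnRNPs was called, with log2 fold changes from -0.14 in HNRNPR to 0.12 in HNRNPUL1. The smaller calls were lost by leaving out 1 library: HNRNPD without WT replicate 3 or 4 or KO replicate 1 or 4, HNRNPH2 without WT replicate 2, 3 or 4 or KO replicate 2 or 4, SRSF7 without WT replicate 3 or 4 or KO replicate 4, and SRSF10 without WT replicate 4 or KO replicate 4. Without composition scaling 18 genes were called lower, and 37.6% of all called genes were higher in place of 52.9%. Of the cardiomyocyte genes 6 of 8 were called higher and 1 lower (ACTN2), and of the proliferation genes 13 of 15 were called lower in these same libraries. Their part in the result was not tested.

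The change from D0 to D4 differed between genotypes in 22 of the 31 genes by the interaction test in edgeR, 20 of them lower in KO than in WT (19.1% of all genes) and 2 higher (20%). In either direction, 39.1% of all genes and 55.6% of genes with a mean of at least 100 CPM were called, the latter with a median of -0.093. Without composition scaling, 15 of the 31 were called lower and 2 higher. The interaction rests on the same D0 and D4 libraries as the comparisons above. KO cells had 24 genes called lower and 5 higher from D0 to D4 (38.5% and 44.1% of all genes, 82.6% in either direction), with a median of -0.969 beside -0.478 in WT. Over all genes the median in KO was 0.118. Over genes with a mean of at least 100 CPM it was -0.526 in KO and -0.40 in WT. HNRNPM changed by -0.10 in WT and -1.20 in KO, an interaction of -1.10 ± 0.11 (SE, adjusted p = 1.86e-07, edgeR). SRSF2 changed by 1.57 in WT and 0.51 in KO (-1.06 ± 0.13). SRSF1 changed by 0.02 and -0.97 (-0.99 ± 0.08), HNRNPU by -0.15 and -0.87 (-0.72 ± 0.09), and TRA2B by -0.05 and -0.74 (-0.70 ± 0.09). At D4 the mean of each of these in KO was below that of WT. HNRNPA1, HNRNPA3, HNRNPC and HNRNPH3, all of which fell by more than 2-fold in both genotypes, were not called in the interaction (0.06, -0.07, -0.12 and -0.10). SRSF8 and HNRNPUL2 were the genes called higher, at 0.36 and 0.25. The SRSF8 call was lost by leaving out any of 9 of the 12 libraries (all but D0 WT replicate 3, D4 WT replicate 3 and D4 KO replicate 3). That of HNRNPUL2 was lost by leaving out any of 7 (D0 WT 1 or 3, D0 KO 1, D4 WT 1 or 2, D4 KO 1 or 3), and neither was called with DESeq2 size factors in edgeR.

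**Figure D3:**
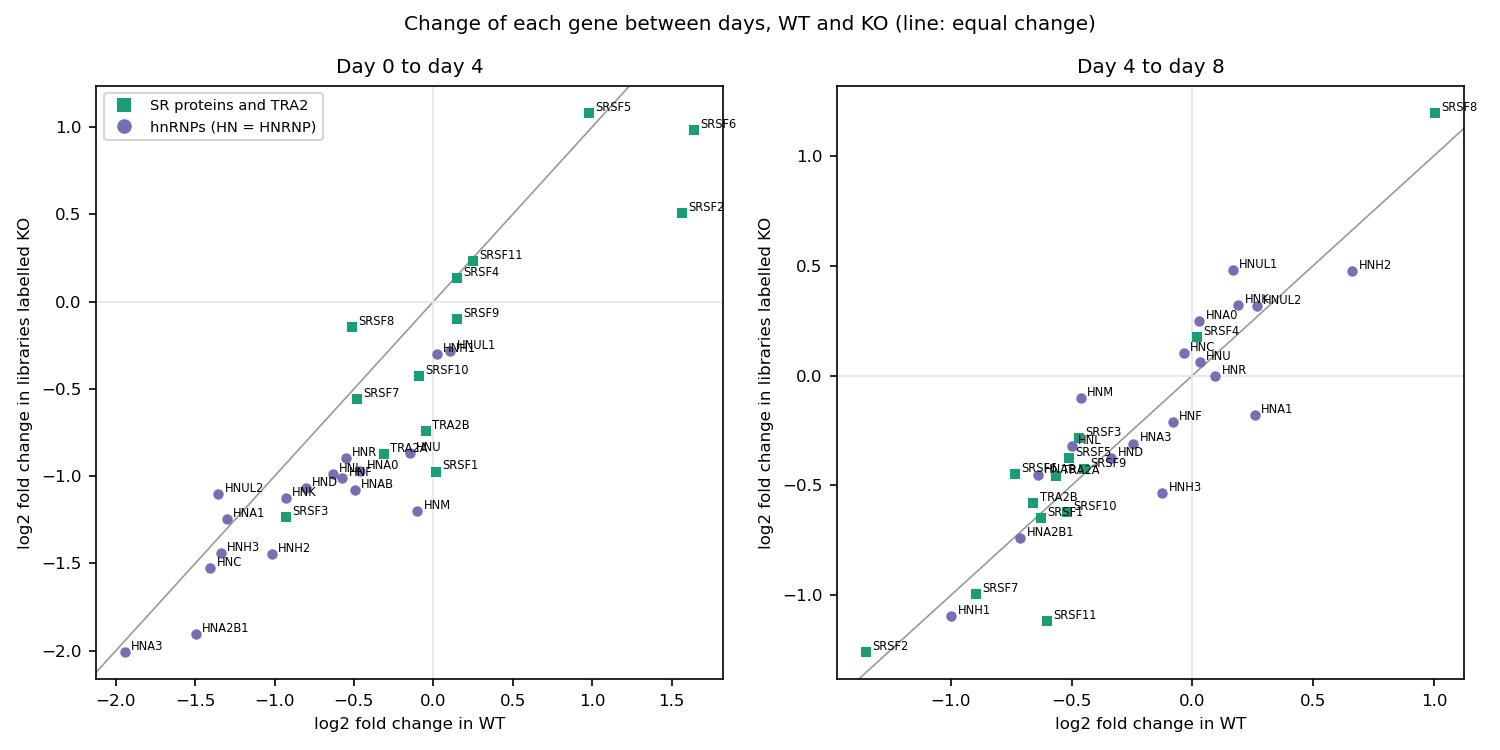
Log2 fold change of each of the 31 genes between days in WT (x axis) and in libraries labelled KO (y axis), with the line of equal change. Squares are SR proteins and TRA2, circles are hnRNPs. From D0 to D4 most points lie below the line, HNRNPM farthest (-0.10 in WT, -1.20 in KO), and from D4 to D8 they lie on both sides of it.

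From D4 to D8 the libraries labelled KO had 7 genes called higher and 20 lower (36.1% and 38.9% of all genes, 75% in either direction), with a median of -0.320. It was -0.056 over all genes and 0.062 over those with a mean of at least 100 CPM. The step differed from that of WT in 6 genes, 3 lower (21.9% of all genes) and 3 higher (19.6%). SRSF11 changed by -0.60 in WT, and by -1.12 in those labelled KO (-0.52 ± 0.11, adjusted p = 5.75e-04, edgeR). HNRNPA1 changed by 0.26 in WT and by -0.18 in those labelled KO (-0.44 ± 0.11), and HNRNPH3 changed by -0.12 and -0.54 (-0.41 ± 0.10). HNRNPM (0.36), HNRNPUL1 (0.31) and SRSF6 (0.29) were called higher. In the libraries labelled KO, the call of HNRNPA1 from D4 to D8 was lost without D4 replicate 1, 2 or 3 or D8 replicate 2 or 4, and from D0 to D4 that of SRSF4 (0.14) without D0 or D4 replicate 2. Without composition scaling none was called higher and 12 lower, and 24.9% of all called genes were higher in place of 47.2%. With DESeq2 size factors in edgeR 7 were called higher and 3 lower.

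In nuclear RNA at D8, 28 genes were higher in the libraries labelled KO, where 31.2% of all genes were (64% in either direction), and none was called lower by edgeR (32.8% of all genes, and none of the 31 at an unadjusted p under 0.05; 1 without composition scaling). The median log2 fold change was 0.737, beside -0.271 over all genes and 0.997 over the 1306 genes with a mean of at least 100 CPM, of which 87.1% were called in either direction. SRSF4, one of the longest SR proteins, had 28.6, 24.2 and 25.6 CPM in WT and 53.2, 65.3 and 57.9 in the libraries labelled KO (1.17 ± 0.13, adjusted p = 1.02e-08, edgeR). SRSF11 had 114, 88.1 and 99.0 and 198, 263 and 210.2 (1.16 ± 0.15). HNRNPD, also called AUF1 and known for binding AU-rich decay elements, had 64.2, 47.5 and 52.1 and 97.3, 133 and 112 (1.06 ± 0.15). All 3 had every nuclear library labelled KO above every WT library. HNRNPU had 290.3, 242 and 244 CPM in WT and 494, 597 and 528 in the libraries labelled KO (1.06 ± 0.17), and SRSF5 129, 106 and 111 and 209.9, 259.6 and 210.4 (0.97 ± 0.15). SRSF3 (0.30), SRSF7 (0.19) and SRSF8 (0.12) were the genes not called.

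Nuclear and whole-cell values went opposite ways for 11 genes, which were called higher in nuclear RNA and lower in whole-cell RNA at D8 (35.5%, beside 9.45% of the 20049 genes tested in both tables and 19.1% of the 2079 of them with a whole-cell mean of at least 100 CPM). SRSF11 (1.16 nuclear, -0.52 whole-cell), HNRNPH3 (0.91 and -0.54) and HNRNPA1 (0.38 and -0.58) were among them. The tables were normalised separately, and the difference was not tested. Of the members called lower in whole-cell RNA at D8, 91.7% were called higher in nuclear RNA. That share was 67.1% among genes with a whole-cell mean of at least 100 CPM and 35.2% among all genes tested in both tables. Marker genes also differed between the nuclear and whole-cell libraries. COL3A1 had 1050 CPM in nuclear WT and 11.3 in whole-cell D8 WT. Log2 fold changes called in both had opposite signs in AFP (4.79 nuclear, -0.63 whole-cell), SOX17 (-0.92 and 0.57) and ACTN2 (0.45 and -2.07). Signs also differed in other markers called in nuclear or whole-cell RNA but not both. Among these were KRT7 (0.37 and -4.54), COL1A1 (-0.83 and 0.25), MESP1 (-0.61 and 1.39), HAND1 (0.58 and -0.30) and POSTN (0.51 and -0.31). The other cardiomyocyte genes called at D8, and FOXA2, APOA1, APOA2 and TTR, were higher in both. Whether these libraries held like cells was not tested. On the log2 scale of CPM plus 0.5, nuclear over whole-cell WT levels ran from -3.21 in HNRNPA1 to -0.22 in HNRNPH1, each below the 0.080 median of the 20049 genes tested in both tables. Of the RNAs listed as retained in the nucleus, NEAT1 (3.09), MALAT1 (1.50) and KCNQ1OT1 (0.99) were called higher in the nuclear libraries labelled KO. MEG3 was called lower (-1.19). In whole-cell RNA at D8 MALAT1 was -1.53, KCNQ1OT1 -0.61 and MEG3 -6.60, and NEAT1 (-0.15) was not called. Cardiomyocyte markers summed to 16504 to 22517 CPM in nuclear WT and to 62168 to 75158 in the nuclear libraries labelled KO, and their part in the result was not tested. Without composition scaling 19 genes were called higher, SRSF7 was called lower (-0.26, adjusted p = 0.0167), the values of SRSF2, SRSF9, HNRNPA1 and HNRNPH1 were below 0 without a call, as were those of SRSF3 (-0.15) and SRSF8 (-0.33), which had no call before, and the median of all genes moved to -0.721, with 25.6% of called genes higher in place of 48.7%. Leaving out nuclear WT replicate 3 ended the calls of SRSF2, SRSF9, TRA2B, HNRNPA0, HNRNPA1, HNRNPA2B1, HNRNPH1 and HNRNPUL2. WT replicate 2 ended the same calls other than TRA2B, and that of HNRNPH2. Leaving out KO replicate 2 ended those of SRSF2, HNRNPA1 and HNRNPH1, and KO replicate 3 those of SRSF2 and HNRNPA1.

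Other genes of splicing regulation and decay were counted from lists. For this and the next paragraph, the shares of all genes called higher and lower were 21.4% and 20.9% at D0. They were 16.3% and 12% at D4, 29.4% and 26.2% at D8, and 42% and 39.1% from D0 to D4 in WT. In nuclear RNA 31.2% were called higher and 32.8% lower. Of the genes with a mean of at least 100 CPM there, 87.1% were called in either direction, with a median of 0.997. Of 9 genes for SR protein kinases and nuclear import, 2 were called higher and 3 lower in KO at D0. The kinases CLK4 (-0.64), CLK3 (-0.50), SRPK1 (0.31) and DYRK1A (-0.29) had the largest of these. At D4, 1 was higher (SRPK2, 0.36) and 1 lower (DYRK1A, -0.18), and at D8, 2 were higher and 3 lower, with PRPF4B at -0.40, SRPK1 at -0.33, CLK3 at 0.30 and SRPK2 at 0.19. All 9 were called higher in nuclear RNA. In WT from D0 to D4, TNPO3, which imports SR proteins, was -1.25 and SRPK1 -1.02, while CLK2 was 1.27 and CLK1 0.95.

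Of 13 SR-related proteins, 2 were called higher and 1 lower at D0 (U2AF2, the large subunit of the factor that binds polypyrimidine tracts, 0.55, SCAF1 0.38 and SRSF12 -0.70), and 2 lower at D4 (U2AF2 -0.24 and SCAF1 -0.23). At D8, 2 were called higher and 7 lower, PNN the lowest at -0.71, and all 13 were higher in nuclear RNA. From D0 to D4 in WT, 8 of the 13 were called higher and 2 lower, with SCAF1 at 1.52 and SRRM2, a core of nuclear speckles, at 1.07. Of 10 further hnRNPs and related proteins, 5 were called higher and 1 lower at D0, with PTBP1, a repressor that binds pyrimidine tracts, at 0.45, 4 lower at D4 and 1 higher and 4 lower at D8. Of 10 NMD factors, 6 were called higher and 1 lower at D0, with UPF3B at 0.89 and SMG5 at 0.49, 4 lower at D4, and 4 higher and 3 lower at D8, where UPF3B was at -0.55. UPF3B, which joins NMD factors to the exon junction complex, was the factor with the largest called value at D0 and at D8, in opposite directions.

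The skipped-exon tables give, for each exon and its 2 neighbours, the share of junction reads that include the exon in each of 3 libraries of a first and a second arm. The tables do not name their arms, so no genotype or siRNA is given to them here, and the second arm minus the first is printed. Events were called where the authors' deposited table gave an FDR under 0.05, the arms' means differed by 0.1 or more, and each arm averaged 10 or more junction reads. Exons were found for 28 of the 31 genes, and none for SRSF8, HNRNPA0 and HNRNPH2. Events of 1 gene often share an exon. At D0, of 321 events with enough reads, 5 were called (1.56%, beside 2.37% of all events), 3 of them in exons carried only by NMD transcripts in GENCODE. Of those 3, the 268-nt exon of SRSF6 holds the annotated stop codon. The 109-nt exon of SRSF11 and the 136-nt exon of HNRNPA2B1 hold no annotated coding bases and no stop. At D4 none of 221 was called (0% beside 1.1%), with 25 at an unadjusted p under 0.05 in the authors' deposited table and none called by limma. At D8, of 325 events, 1 was called (0.308% beside 2.23%), and in the 293T table none of 205 (0% beside 0.451%), with 10 at an unadjusted p under 0.05 and 1 called by limma.

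SRSF6 had the largest difference of the 31 genes' called events. Its 268-nt exon (hg19 chr20:42087793-42088060), the first sequence above, was included at 0.680, 0.545 and 0.450 in the first arm of the D0 table and at 0.205, 0.191 and 0.143 in the second, a difference of -0.379 with an FDR listed at 0 in the authors' deposited table. The arms did not overlap, but the first spread from 0.450 to 0.680, and limma on the logit of inclusion gave an adjusted p of 0.173 (n = 3). At D8 the same exon was included at 0.301, 0.177 and 0.240 and 0.150, 0.128 and 0.149 (-0.097, FDR 5.50e-05 in the authors' deposited table, limma adjusted p = 0.68), below the difference of 0.1. It was at 0.179, 0.182 and 0.140 and 0.226, 0.180 and 0.227 at D4 and at 0.227, 0.185 and 0.263 and 0.263, 0.275 and 0.349 in 293T, with arms that overlapped at D4 and touched at 0.263 in 293T.

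SRSF11 held the one event called in 2 tables, and in opposite directions. Its 109-nt exon (hg19 chr1:70696778-70696886), annotated in an NMD transcript, was included at 0.319, 0.266 and 0.311 in the first arm and 0.126, 0.091 and 0.181 in the second at D0 (-0.166, FDR 0.0138 in the authors' deposited table). At D8 it was included at 0.170, 0.189 and 0.160 and 0.316, 0.413 and 0.302 (0.171, FDR 0.00162 in the authors' deposited table). The arms were apart in both tables, but each library had few junction reads, with means of 46.0 and 37.0 in the arms at D0 and 87.0 and 61.0 at D8, and limma's adjusted p were 0.297 and 0.186. At D4 and in 293T the arms overlapped. The next exon of 117 nt, the downstream neighbour in that event, with its stop printed above, was included at 0.134, 0.144 and 0.148 and 0.115, 0.112 and 0.077 at D8 (-0.041, FDR 0.01 in the authors' deposited table, limma adjusted p = 0.79).

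The other 3 called events were in hnRNP genes at D0. The 57-nt exon of HNRNPD (hg19 chr4:83292681-83292737), one of the alternative exons that set the AUF1 protein isoforms, was included at 0.605, 0.601 and 0.598 and 0.725, 0.711 and 0.736 (0.123, FDR 5.78e-09 in the authors' deposited table), and it was the event that limma also called (adjusted p = 0.0228). In a D0 event that pairs this exon with a different neighbour, the difference was 0.019 (FDR 0.0268 in the authors' deposited table, limma adjusted p = 0.781). A 136-nt exon of HNRNPA2B1 (hg19 chr7:26230613-26230748) was included at 0.894, 0.870 and 0.885 and 0.788, 0.755 and 0.753 (-0.118, FDR 5.91e-07 in the authors' deposited table, limma adjusted p = 0.0677). A 115-nt exon of HNRNPC was included at 0.080, 0.102 and 0.016 and 0.102, 0.205 and 0.221 (0.110), with overlapping arms and means of 22.7 and 33.7 junction reads. At D4 the HNRNPD exon was included at 0.848, 0.846 and 0.844 and 0.816, 0.827 and 0.810, above every D0 library.

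**Figure D4:**
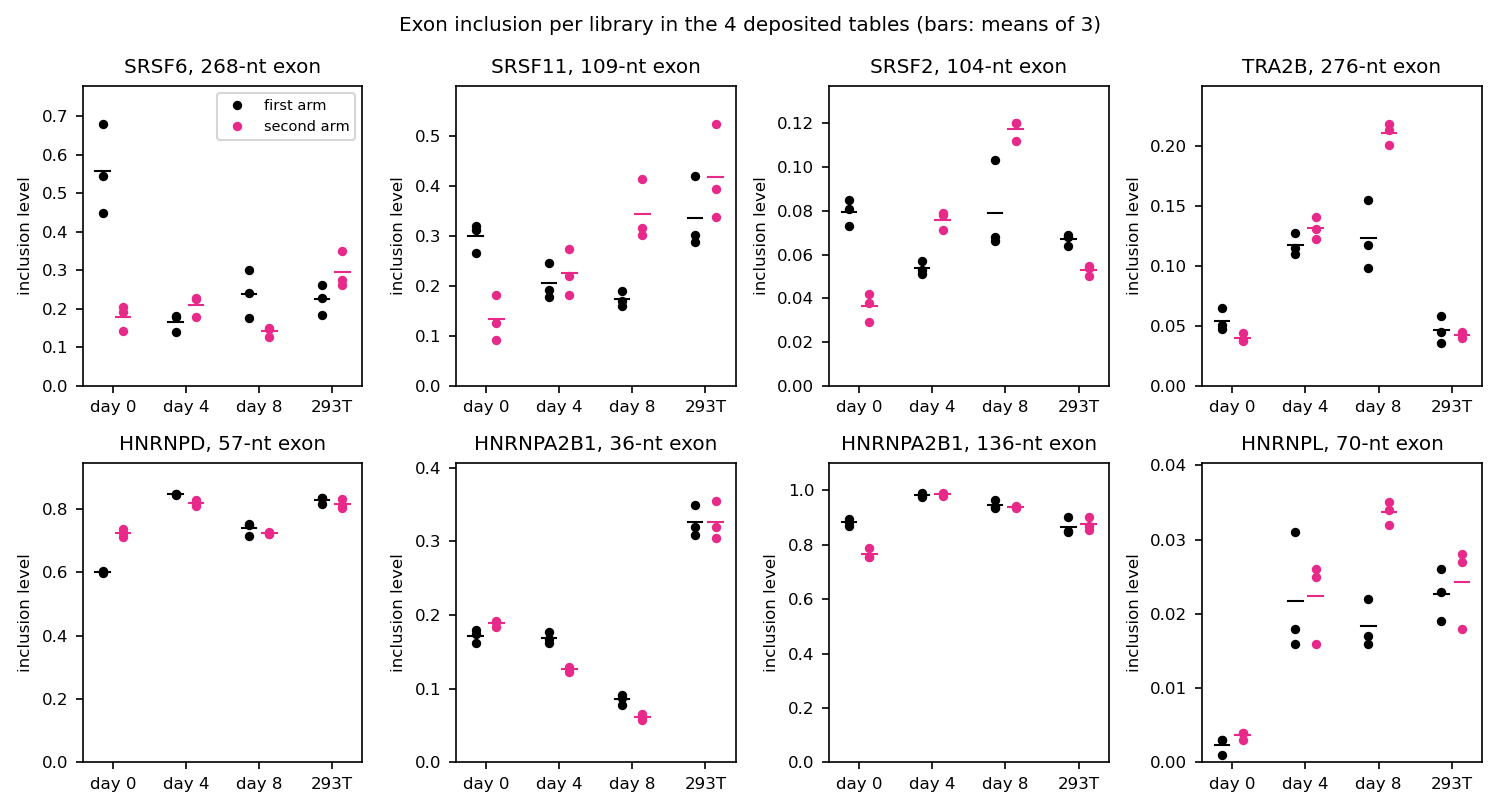
Inclusion level (y axis, from 0) of 8 exons in each library of the first arm (black) and second arm (pink) of the 4 tables (x axis). Bars are means of 3. The arms of SRSF6 lie farthest apart at D0 (0.450 to 0.680 against 0.143 to 0.205), and those of SRSF11 and SRSF2 change order between D0 and D8.

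At an FDR under 0.05 with any difference, 22 events were listed at D0 (6.85%, beside 5.63% of all events), 4 at D4 (1.81% beside 1.88%), 14 at D8 (4.31% beside 4.22%) and 1 in 293T (0.488% beside 0.675%). The exons named next were chosen after their values were seen. The 104-nt exon of SRSF2 (hg19 chr17:74731854-74731957), annotated in an NMD transcript, was included at 0.073, 0.081 and 0.085 and 0.038, 0.042 and 0.029 at D0, at 0.051, 0.057 and 0.053 and 0.071, 0.078 and 0.079 at D4, and at 0.103, 0.066 and 0.068 and 0.112, 0.120 and 0.120 at D8. The differences were -0.043, 0.022 and 0.038 in the authors' deposited tables (FDR 7.65e-13, 0.00962 and 8.37e-05), so the second arm was below the first at D0 and above it at D4 and D8. By limma the adjusted p were 0.123, 0.151 and 0.717. The 276-nt exon of TRA2B (hg19 chr3:185649365-185649640), the second sequence above, was included at 0.065, 0.051 and 0.047 and 0.044, 0.037 and 0.038 at D0 and at 0.155, 0.098 and 0.117 and 0.213, 0.218 and 0.201 at D8 (-0.015 and 0.087 in the authors' deposited tables). Its inclusion in D4 and D8 libraries, from 0.098 to 0.218, was above every D0 library, from 0.037 to 0.065. That order across tables was not tested, and between arms limma gave this exon adjusted p of 0.657 at D0 and 0.345 at D8.

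In the next exons the differences were smaller. The 36-nt exon of HNRNPA2B1 (hg19 chr7:26237451-26237486), which tells the B1 from the A2 protein, was included at 0.177, 0.168 and 0.162 and 0.127, 0.130 and 0.122 at D4 (-0.043) and at 0.078, 0.088 and 0.092 and 0.065, 0.062 and 0.058 at D8 (-0.024), as the authors' deposited tables give it. The 70-nt exon of HNRNPL (hg19 chr19:39332253-39332322), which ends in the stop printed above, stayed at or below 0.035 in all 4 tables and was included at 0.016, 0.017 and 0.022 and 0.035, 0.034 and 0.032 at D8 (0.015, FDR 3.53e-06 in the authors' deposited table). In 293T the event listed was the 134-nt exon of TRA2B, included at 0.988, 0.987 and 0.996 and 0.971, 0.960 and 0.970 (-0.023, FDR 0.0147 in the authors' deposited table). By limma the adjusted p of these exons were 0.103 at D4 and 0.188 at D8 for HNRNPA2B1, 0.151 at D8 for HNRNPL and 0.109 in 293T for TRA2B. Over all events of the 31 genes with enough reads, the median difference between arms of exons carried only by NMD transcripts was 0 at D0 and D8, as was that of exons of coding transcripts.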

How the data were processed

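The authors deposited 2 tables of raw read counts per gene (whole numbers, 18 whole-cell and 6 nuclear libraries) and 4 tables of skipped exons, laid out as rMATS writes them per the file headers. In those tables the authors give junction read counts, inclusion levels as fractions from 0 to 1, p-values and FDR. Tools named in the submitters' processing notes include STAR and featureCounts, with cutadapt and UMI-tools. They also give the genome build as hg19. Strand and rMATS settings, annotation and tool versions were not found in these sources, so reads of overlapping antisense genes and of pseudogenes may be assigned to a gene.

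Gene counts went into edgeR 4.0.16 (under R 4.3.3 with filterByExpr, TMM, quasi-likelihood test, two-sided, Benjamini-Hochberg) with 1 mean per group: 21761 genes in 1 fit of the 18 whole-cell libraries (biological coefficient of variation 8.23%) and 30481 genes in 1 fit of the 6 nuclear libraries (11.9%). Two-sided limma 3.58.1 tests on the logit of inclusion (levels bounded 0.01 from 0 and 1) and DESeq2 1.42.0 were alternatives. The scripts were tested on simulated data. Mean inclusion differences and SDs were computed from the levels per library; deposited differences are first minus second and were turned around.

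All 31 genes are accounted for. Those given with every library's value were, in each comparison, called with groups that do not overlap, up to 5 highest and 5 lowest, and the members of a role group described together (TRA2 at D0, hnRNP F/H at D8); of other lists, up to 4 called genes with the largest change; of exons, those called in 2 tables and the 5 largest called per table. Further exons were chosen after their values were seen. The genes, lists and tests were chosen with earlier results of these data known. Same-numbered libraries did not deviate together in all pairs, so numbers were not taken to pair them.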

Additional observations from a re-analysis of the deposited data

Results flagged for a closer look

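The KO effect differed between days in several genes, by the interaction test in edgeR (adjusted p under 0.05). For the D0 to D4 step, KO minus WT, the log2 values among SR proteins and TRA2 were -0.99 in SRSF1, -1.06 in SRSF2, -0.31 in SRSF3, -0.66 in SRSF6, 0.36 in SRSF8, -0.25 in SRSF9, -0.34 in SRSF10, -0.56 in TRA2A and -0.70 in TRA2B. Among hnRNPs they were -0.51 in HNRNPA0, -0.41 in HNRNPA2B1, -0.59 in HNRNPAB, -0.26 in HNRNPD, -0.44 in HNRNPF, -0.32 in HNRNPH1, -0.43 in HNRNPH2, -0.35 in HNRNPL, -1.10 in HNRNPM, -0.34 in HNRNPR, -0.72 in HNRNPU, -0.39 in HNRNPUL1 and 0.25 in HNRNPUL2. Leaving out 1 library ended the calls of 6 of these 22 (SRSF8 and HNRNPUL2, whose libraries are given above, and 4 others). SRSF3 lost its call without D0 WT 2, D0 KO 2 or 3, D4 WT 2 or 3, or D4 KO 1, 2 or 3. SRSF9 lost it without D0 KO 3, D4 WT 2 or 3, or D4 KO 1. HNRNPD lost it without D0 WT 2, D0 KO 3, D4 WT 2 or 3, or D4 KO 1, and HNRNPH1 without D0 WT 2, D4 WT 1, or D4 KO 2 or 3.

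For the D4 to D8 step the values were 0.29 in SRSF6, -0.52 in SRSF11, -0.44 in HNRNPA1, -0.41 in HNRNPH3, 0.36 in HNRNPM and 0.31 in HNRNPUL1. The call of SRSF6 was lost without any of 6 libraries (D4 WT replicate 2 or 3, D4 KO replicate 3, D8 WT replicate 2, D8 KO replicate 2 or 4).

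In 5 exons given here, with an FDR under 0.05 in the authors' deposited table for each value printed, the second arm lay wholly below the first in one table and wholly above it in another, and this difference between tables was not tested. The arms are unnamed, and no source used here says whether they hold the same genotype in each table. The second minus the first arm was -0.166 at D0 and 0.171 at D8 in the 109-nt exon of SRSF11, -0.043 at D0, 0.022 at D4 and 0.038 at D8 in the 104-nt exon of SRSF2, and -0.015 at D0 and 0.087 at D8 in the 276-nt exon of TRA2B. It was 0.007 at D0 and -0.022 at D8 in the 45-nt exon of HNRNPM, and -0.010 at D0 and 0.022 at D4 in the 74-nt exon of HNRNPUL2. By limma the adjusted p of the values printed for these 5 exons ran from 0.123 (SRSF2 at D0) to 0.732 (HNRNPUL2 at D4).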

How the results depend on the processing

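With DESeq2 size factors in edgeR, calls of the 31 genes were 1 lower in KO at D0, 11 lower at D4, 2 higher at D8, 0 higher in the difference of the D0 to D4 step and 7 higher in that of the D4 to D8 step. DESeq2's own test gave 12 lower at D4, 2 higher at D8, and 1 and 7 higher in the 2 differences. Totals with no composition factor gave 1 higher and 3 lower at D4, 0 higher and 12 lower in the difference of the D4 to D8 step (24.9% of all called genes higher, from 47.2%; in the D0 to D4 difference 62.9%, from 51.1%), and 1 lower in nuclear RNA; there the values of SRSF2 (-0.12), SRSF7 (-0.26), SRSF9 (-0.04), HNRNPA1 (-0.06), HNRNPH1 (-0.01) and HNRNPUL2 (0.00) turned around, and SRSF3 (-0.15) and SRSF8 (-0.33) were not called. Without a filter on low counts, 0 were higher in the difference of the D0 to D4 step. A replicate block moved 2 counts, to 3 higher from D4 to D8 in WT (without HNRNPA1, HNRNPK and HNRNPUL1) and 1 higher in the difference of the D0 to D4 step, and same-numbered libraries share only a number here. Leaving out each library gave 1 to 2 genes lower at D0, 0 to 1 higher and 3 to 9 lower at D4, 1 to 2 higher at D8, and 0 to 2 higher in the difference of the D0 to D4 step. The causes were not tested.

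For exons, a difference of at least 0.2 left 1 event at D0 and 0 at D8, an FDR under 0.01 left 3 at D0, and limma left 1 at D0 and 0 at D8 and called 1 in 293T, a 175-nt exon of SRSF4 with 3 skipping reads in all. With each library left out, limma called 0 to 1 at D0, 0 to 0 at D8 and 0 to 1 in 293T. The SRSF11 and HNRNPC events averaged under 90 junction reads per library, which limits their precision.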
